A study of Rattus norvegicus with 8 samples.

Results

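The miR-200 family was examined on 1-colour Agilent miRNA arrays of rat pancreatic islets. Its members were taken by name as every non-control feature for rno-miR-200a, rno-miR-200b, rno-miR-200c, rno-miR-141 or rno-miR-429 (written below without the species prefix), or for an asterisk product (the minor arm) of the same hairpins. They were 9 of 677 miRNAs on the array, 20 of 1644 probes and 180 of 13540 features. All 5 mature members were well above background on all 8 arrays, and 4 asterisk products (miR-200a*, miR-200b*, miR-200c* and miR-141*) had probes. Islets, the endocrine cell clusters of the pancreas with beta cells as the main cell type, came from Sprague Dawley rats labelled as controls, at 10 days of age (P10, 4 arrays) or as males at 3 months (adult, 4 arrays). Each array is a biological replicate by its title. The labels do not say how many animals gave its islets, nor the sex of the P10 rats, so p-values measure the spread between these samples.

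The miR-200 family is known from epithelial cells. Its members bind the mRNAs of the repressors ZEB1 and ZEB2, which silence E-cadherin, and ZEB proteins in turn repress the genes of the family, so that the 2 sides hold each other in check. High miR-200 accompanies the epithelial state and low miR-200 the mesenchymal state. Islet endocrine cells are epithelial in origin, and in mouse beta cells the family has been linked to whether cells survive or die under stress.

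The family comes from 2 genomic clusters and carries 2 seeds (bases 2 to 8 of the mature strand, which pair with targets). The hairpins are shown because the comparison turns on which cluster and which seed a member has. The sequences and positions are those of RefSeq on the build GRCr8, which is not the build of the array's design (rn4), and all 5 hairpins were matched by symbol. Capitals mark the seed of the 3' arm, found by searching each hairpin for the seeds of miR-200c-3p and miR-141-3p, and each hairpin held 1 of the 2 seeds once.
Mir200b, chr5:171931495-171931589, minus strand: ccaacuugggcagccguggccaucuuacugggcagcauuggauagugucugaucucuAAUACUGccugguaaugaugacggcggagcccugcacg
Mir200a, chr5:171930717-171930805, minus strand: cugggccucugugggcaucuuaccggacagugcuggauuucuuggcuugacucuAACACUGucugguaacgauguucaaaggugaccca
Mir429, chr5:171929682-171929766, minus strand: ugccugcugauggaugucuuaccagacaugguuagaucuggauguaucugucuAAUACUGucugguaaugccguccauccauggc
Mir200c, chr4:159209965-159210033, minus strand: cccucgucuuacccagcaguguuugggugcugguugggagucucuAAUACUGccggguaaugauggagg
Mir141, chr4:159209525-159209618, minus strand: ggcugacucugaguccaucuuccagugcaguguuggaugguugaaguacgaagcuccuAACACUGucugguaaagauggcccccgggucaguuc
The chromosome 5 cluster spans 1908 bases and the chromosome 4 cluster 509 bases. Each cluster holds both seeds: AAUACUG in Mir200b, Mir429 and Mir200c, and AACACUG in Mir200a and Mir141, which differ by U4C (positions from the 5' end of the mature strand, miR-200c-3p first).

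Members of different clusters are near copies of each other, which matters for a hybridisation assay. The mature strands of the chromosome 4 cluster, with seeds in capitals, are as follows.
miR-200c-3p: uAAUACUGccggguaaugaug
miR-141-3p: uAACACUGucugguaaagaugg
The 21 bases of miR-200c-3p met the Mir200b hairpin with 1 mismatch, G11U. They met the hairpins of Mir200a and Mir429 with 4 mismatches each. The 22 bases of miR-141-3p met the Mir200a hairpin with 2 mismatches, A17C and G22U (positions from the mature strand's 5' end, its base first). How far a probe for 1 member also takes up its near copy was not tested.

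The 8 arrays shared a slide on which each age had a column of its own, so that column and age cannot be told apart. The 75th percentile signal of the 278 probes well above background on every array was 388 and 440 on P10 replicates 1 and 2, 989 and 1690 on P10 replicates 3 and 4, and 1284 to 1677 on adult arrays. Each array was divided by that percentile, so a scaled log2 level of 0 means a signal equal to it, and differences are relative to the bulk of bright miRNAs. Of 238 miRNAs tested, 65 were higher and 48 lower in adult (limma, Benjamini-Hochberg adjusted p under 0.05). Scaling moved this split: the percentile over all probes gave 90 and 34, no scaling 58 and 17, spike-in scaling 53 and 9, normexp (a model-based background correction) 33 and 47, values relative to miR-375 26 and 70, and cyclic loess (intensity-dependent curves) over all probes 12 and 22. Over all tested miRNAs the median log2 difference, -0.01 here, moved to 0.45, 0.94, 1.0047, -0.28, -0.48 and 0.15 under these alternatives in the same order. It was 0.15 both with quantile normalization and in the value table of the authors, 0.24 with cyclic loess on bright probes, and 0.11 with the total gene signal.

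Under this scaling the chromosome 4 cluster was higher in adult islets and the chromosome 5 cluster was not called in either direction. Of the 5 mature members, 2 rose (miR-200c and miR-141) and 0 fell. Over all tested miRNAs 47.5% were called in either direction, 27.3% higher and 20.2% lower, so the count of members is close to the background share. The median log2 difference was 0.17 over the 5 members and -0.01 over all 238 tested.

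miR-200c, which carries the AAUACUG seed, had the largest difference of the family under this scaling, while miR-200b had a larger one, below 0, relative to miR-375 (-0.82 against 0.41) and with cyclic loess over all (-1.07 against 0.16) or bright probes (-0.71 against 0.60). Its scaled log2 level was 0.08, 0.20, -0.24 and -0.33 on the P10 arrays, in the order of their replicate numbers. On the adult arrays it was 0.67, 0.81, 0.85 and 0.87. All 4 adult arrays lay above all 4 P10 arrays, as they did in 1 direction or the other for 45.8% of tested miRNAs. The unscaled signals of the same probe were 409, 505, 840 and 1347 on P10 arrays and 2161, 2462, 3028 and 2347 on adult arrays. The ages were thus also apart before scaling, where the median log2 difference over all tested miRNAs was 0.94. miR-200c rose 1.83-fold (log2 difference 0.87 ± 0.14 SE, 95% confidence interval 0.55 to 1.20, n = 4 per age, limma adjusted p = 0.00155). Its call was lost with cyclic loess over all probes (0.16, limma adjusted p = 0.437) and relative to miR-375 (0.41, adjusted p = 0.234). Its sign was positive in all 28 alternatives. Those that change only the filter, the floor, the eBayes setting or a block could not move its difference from 0.87.

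miR-141, the partner of miR-200c with the AACACUG seed, moved by less. Its scaled log2 level was 2.89, 2.88, 2.75 and 2.55 on P10 replicates 1 to 4. It was 3.24, 3.15, 3.28 and 3.26 on adult replicates 1 to 4, again with no overlap of the ages. The unscaled signals were 2885, 3243, 6634 and 9883 on P10 arrays and 12757, 12458, 16305 and 12323 on adult arrays. miR-141 rose 1.38-fold (0.47 ± 0.11 SE, 95% confidence interval 0.21 to 0.72, n = 4 per age, limma adjusted p = 0.00926). The direction of miR-141 depended on the scaling. It was called lower in adult with quantile normalization (-0.33, limma adjusted p = 0.0281), stood below 0 with cyclic loess over all (-0.20) or bright probes (-0.20) and in the authors' value table (-0.16), and was at 0.00056 relative to miR-375.

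In the chromosome 5 cluster, miR-200b and miR-429 had their highest levels on the 2 dimmest P10 arrays. The scaled log2 level of miR-200b was 1.69, 1.62, 1.20 and 0.53 for P10 replicates 1 to 4, against 0.94, 1.01, 0.98 and 0.71 on adult replicates 1 to 4. P10 replicate 4 lay below every adult array and the other 3 P10 arrays lay above them, so the ages overlapped. The log2 difference of miR-200b was -0.35 ± 0.25 SE (95% confidence interval -0.94 to 0.24, n = 4 per age, limma adjusted p = 0.301). miR-429, with the same seed, was at 0.72, 0.67, 0.45 and 0.03 on P10 arrays and at 0.16, 0.24, 0.23 and 0.07 on adult arrays. Its pattern over the arrays was that of miR-200b, with P10 replicate 4 lowest. The log2 difference of miR-429 was -0.29 ± 0.16 SE (95% confidence interval -0.67 to 0.09, limma adjusted p = 0.185, n = 4 per age). P10 replicate 4 decided both calls: without it miR-200b stood at -0.59 (limma adjusted p = 0.0141) and miR-429 at -0.44 (adjusted p = 0.00946), both called lower in adult. With P10 replicates 3 and 4 alone, which leaves out the 2 dimmest arrays, miR-200b stood at 0.05 and miR-429 at -0.07, with neither called.

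miR-200a, the AACACUG member of the chromosome 5 cluster, lay between. Its scaled log2 level was 1.36, 1.38, 1.02 and 0.70 for P10 replicates 1 to 4, against 1.18, 1.48, 1.37 and 1.09 on adult replicates 1 to 4. The ages overlapped. The log2 difference was 0.17 ± 0.18 SE (95% confidence interval -0.25 to 0.58, limma adjusted p = 0.499, n = 4 per age). It was called higher with the percentile over all probes (0.64, limma adjusted p = 0.0124) and in no other alternative.

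**Figure D1:**
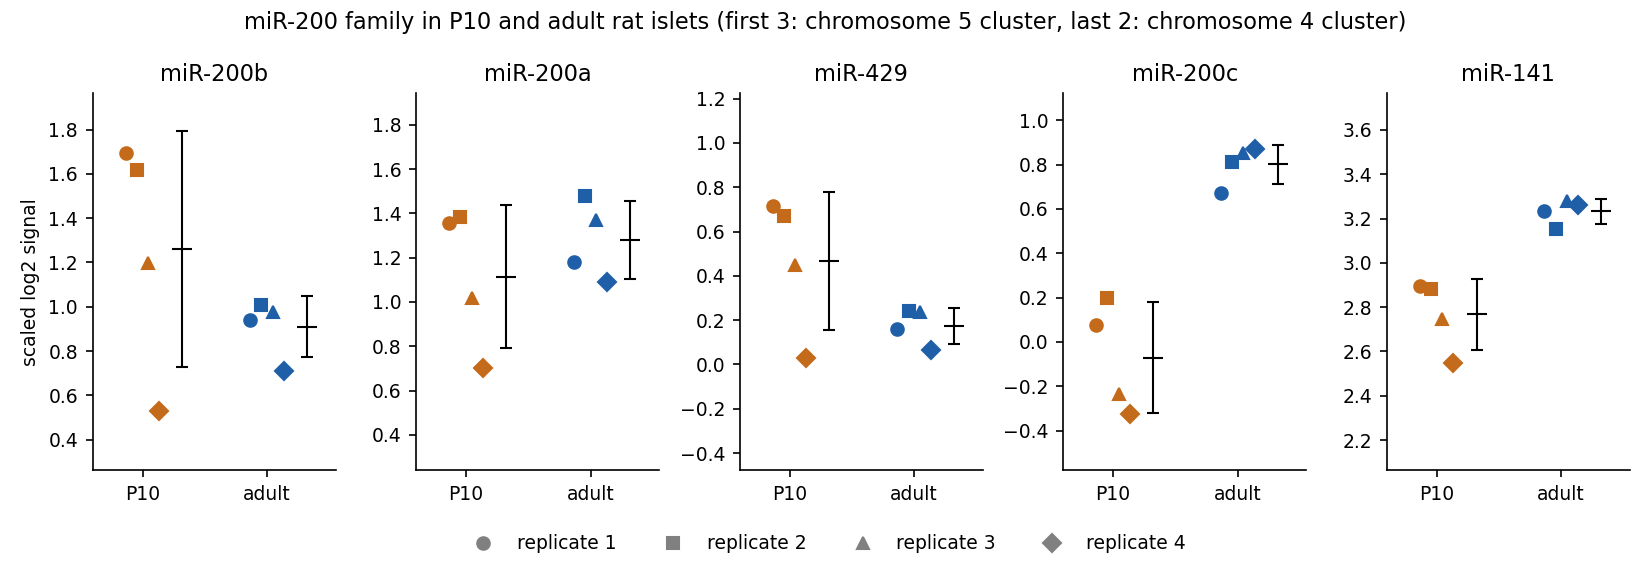
Scaled log2 signal (y axis, 0 is the array's 75th percentile of bright probes; each panel has its own range of equal height) of the 5 mature members on 4 P10 and 4 adult arrays, with symbols for replicates and a bar for the mean ± SD (n = 4). For miR-200c and miR-141 every adult array lies above every P10 array, while miR-200b, miR-200a and miR-429 overlap between the ages and have their lowest value on P10 replicate 4.

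The spread within P10 exceeded that within adult for every mature member. The SD over 4 arrays ran from 0.16 for miR-141 to 0.53 for miR-200b in P10, and from 0.06 for miR-141 to 0.18 for miR-200a in adult. This was also the case for 89.5% of the tested miRNAs, so it is no feature of the family. In all 5 members P10 replicates 1 and 2 lay above replicates 3 and 4, an order found in 39.9% of the tested miRNAs. The acinar marker miR-216a, at -0.60 and -0.91 on P10 replicates 1 and 2, -4.77 and -5.51 on replicates 3 and 4 and -2.77 to -1.74 in adult, was also highest on those arrays. The summed level of the 2 acinar markers matched on the array (miR-216a and miR-217) ran from -4.51 to -0.35 in P10 and from -2.36 to -1.33 in adult on the log2 scale. The part of acinar RNA and of array brightness in the levels of the family was not tested. In whole islets, fewer cells of a type and less of a miRNA per cell cannot be told apart.

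The 2 clusters were then compared within each array, where any factor that scales a whole array cancels. The mean log2 level of miR-200b, miR-200a and miR-429 minus that of miR-200c and miR-141, taken relative to its mean over the 8 arrays, was 0.58, 0.50, 0.45 and 0.13 on P10 replicates 1 to 4. It was -0.38, -0.26, -0.39 and -0.63 on adult replicates 1 to 4. Every P10 array was above 0 and every adult array below it. From P10 to adult the chromosome 5 cluster thus shifted by -0.83 on the log2 scale against the chromosome 4 cluster (0.41 ± 0.20 in P10 and -0.41 ± 0.16 in adult, SD, n = 4). No p is given, because the members were chosen with earlier results known. Of the 28 alternatives, 11 could not move the shift. They scale whole arrays or change only the filter, the floor, the eBayes setting or a block, and array weights were not applied to it. The shift was below 0 in each of the rest. Among the other 17 it was -0.80 with normexp, -0.82 with the total gene signal, -0.78 with the mean over probes, -0.67 in the authors' value table, -0.64 with quantile normalization, and -0.69 and -0.58 with cyclic loess on bright and over all probes. With P10 replicates 3 and 4 alone it was -0.70, and with 1 array left out it ran from -0.92 to -0.76. The ages overlapped only with cyclic loess over all probes.

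**Figure D2:**
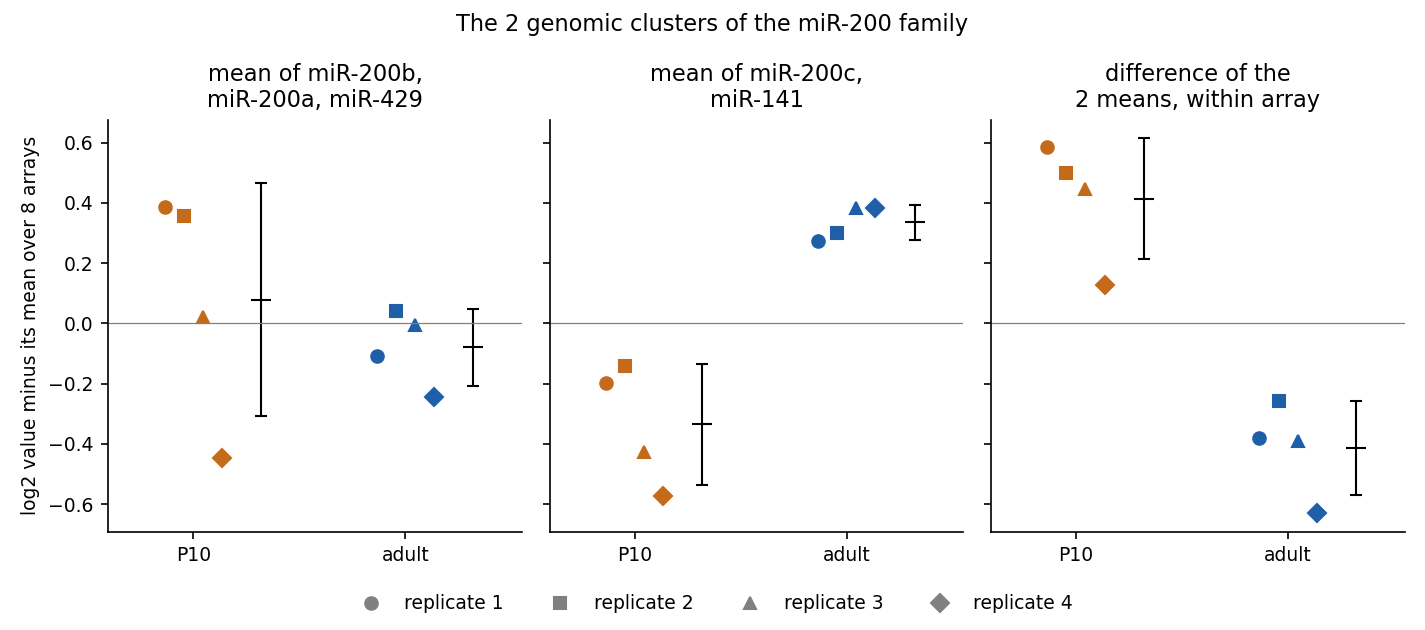
Mean log2 level of the chromosome 5 members (left), of the chromosome 4 members (middle) and their within-array difference (right), each minus its mean over 8 arrays (y axis, log2 units), on 4 P10 and 4 adult arrays, with the mean ± SD (n = 4). The left panel overlaps between the ages, and in the right panel the P10 arrays run from 0.13 to 0.58 and the adult arrays from -0.63 to -0.26.

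Pairs of members showed how cluster and seed crossed. Of the 10 pairs, 8 had within-array log2 differences that did not overlap between the ages, where 50.7% of all 28203 pairs of tested miRNAs did the same. The 10 pairs are built from 5 members and are not independent, and every pair with miR-200c is among the 8. miR-200b and miR-429, of the same cluster and seed, moved together: their within-array difference changed by -0.06 from P10 to adult. miR-200b and miR-200c, which differ by the single mismatch given above and lie in different clusters, parted by -1.22. miR-429 and miR-200c, also of the AAUACUG seed and different clusters, parted by -1.17 (0.58 ± 0.15 in P10 and -0.58 ± 0.12 in adult, SD, n = 4, relative to the mean of 8 arrays). For miR-200a and miR-141, the pair with the AACACUG seed in different clusters, the change was -0.30 and the ages overlapped.

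Within a cluster the seeds also parted, in opposite senses. In the chromosome 5 cluster miR-200a gained on both AAUACUG members, by 0.52 against miR-200b and by 0.46 against miR-429. In the chromosome 4 cluster the AAUACUG member gained: miR-200c moved by 0.41 against miR-141. The ages did not overlap in any of these 3 pairs. The largest change within a cluster (0.52) was below the largest between clusters (1.22), and all 3 changes exceeded that of miR-200a and miR-141 between clusters (0.30). The mean of the 3 AAUACUG members minus the mean of the 2 AACACUG members changed by -0.24, against -0.83 for the clusters.

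Each mature member had 2 probes of 10 features each, and the probes gave the same sign. The features of a probe agreed closely within an array: the median coefficient of variation ran from 2.13% to 6.50% by probe, the largest on any array was 14.3%, and at least 8 features were used. The brighter and the dimmer probe gave log2 differences of -0.35 and -0.48 for miR-200b, 0.17 and 0.09 for miR-200a, -0.29 and -0.48 for miR-429, and 0.87 and 0.71 for miR-200c. The pair disagreed most for miR-141, at 0.47 and 0.16. With the dimmer probes in the fit, miR-200c remained called (limma adjusted p = 0.0064), miR-141 was not (adjusted p = 0.408), and miR-429 passed as lower in adult (adjusted p = 0.0394). The shift between the clusters was -0.72 with the dimmer probes.

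The authors' deposited value table gave the same picture for miR-200c and another for miR-141. In that table, on a log2 scale and with all arrays sharing a single distribution, miR-200c was at 9.85, 10.02, 9.67 and 9.67 on P10 arrays and 10.60, 10.60, 10.80 and 10.66 on adult arrays. Its difference of 0.86 was called (limma adjusted p = 0.000775, n = 4 per age). miR-141 was at 12.96, 12.85, 12.67 and 12.67 on P10 arrays and 12.58, 12.58, 12.67 and 12.67 on adult arrays. Several arrays held the same value, and miR-141 was not called (limma adjusted p = 0.257). None of the 5 members was called lower in that table, where 18.1% of the tested miRNAs were.

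**Figure D3:**
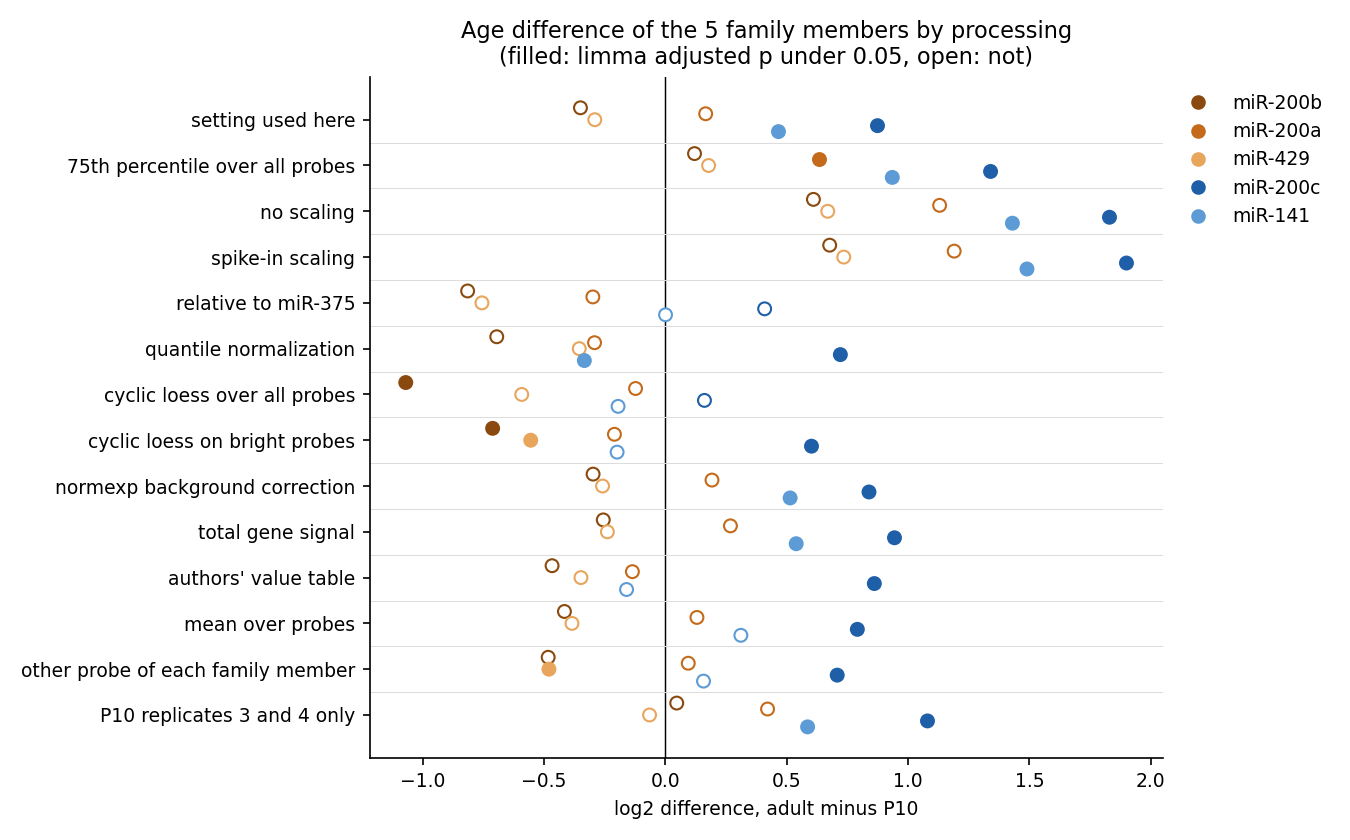
Log2 difference (x axis, adult minus P10) of the 5 mature members under the setting used here and under alternatives of scaling, signal, probe and arrays (rows), filled where the limma adjusted p was under 0.05. miR-200c is to the right of 0 in every row, the chromosome 5 members lie to its left in every row, and miR-141 lies on both sides of 0.

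The asterisk products were at or near background, so the minor arms gave no tested comparison. No probe of miR-200a*, miR-200c* or miR-141* was well above background on any array, with highest signals of 5.36, -0.914 and 13.3 after background subtraction. miR-200b* was above background in 4 of 32 combinations of 4 probes and 8 arrays, with a highest signal of 37.9. None of the 4 products reached the minimum of 4 arrays for testing. The scanner's own detection flag per miRNA marked miR-200b* on 3 P10 and 4 adult arrays and miR-141* on 1 adult array. The authors' value table held miR-200b* (log2 difference -0.25) and miR-141* (0.63), each with ages that overlapped. The second probe of miR-141* read -0.653, 0.798, 0.775 and 3.05 for P10 replicates 1 to 4, against 6.89, 5.20, 13.3 and 9.45 on adult replicates 1 to 4. These signals are not well above background, so no fold is given.

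Of 11 tested miRNAs on a list of 13 others linked to epithelial cells, 3 rose, 4 fell and 4 were not called, where 27.3% of all tested miRNAs were called higher and 20.2% lower. The median log2 difference of the list was -0.05, against -0.01 over all tested. The sensory and epithelial cluster members miR-183 (1.07) and miR-96 (0.96) rose, and their partner miR-182 stood at 0.28 (limma adjusted p = 0.0845). Cyclic loess over all probes ended the calls of miR-183 (0.625) and miR-96 (0.22), and values relative to miR-375 that of miR-96 (0.50). miR-375, the abundant islet miRNA, was at 2.89, 3.18, 3.57 and 3.43 on P10 arrays and 3.77, 3.66, 3.59 and 3.91 on adult arrays. Its difference of 0.47 was just past the threshold (limma adjusted p = 0.0485), and leaving out any array but P10 replicates 3 and 4 ended the call (0.34 to 0.51). It was -0.30 under quantile normalization, -0.28 under cyclic loess on bright probes and -0.42 in the authors' value table. The difference of miR-141 was of the same size as that of miR-375.

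miR-203, known from stratified epithelia, fell in the fit (log2 difference -3.15, adjusted p = 0.00112 by limma, n = 4 per age). Only 1 adult array had it well above background and the other 3 were set to the floor, so the size of this difference depends on the floor (-3.66 with the floor 2-fold lower) and no fold is given. Cyclic loess over all probes ended its call (-0.885, limma adjusted p = 0.208). The gut epithelium markers miR-192 (-2.78) and miR-194 (-3.41) fell as well. The call of miR-192 was lost without scaling (-1.82), with spike-in scaling (-1.76), with cyclic loess over all probes (-1.46) and with no filter on low values (-2.78, adjusted p = 0.0784 by limma), and that of miR-194 with spike-in scaling (-2.38). For miR-215, which no adult array had above background, the mean level was lower by at least 43.5-fold (adjusted p = 0.00151 by limma). The mean scaled log2 level in P10 was -0.01. This bound allows for the adult floor only, not for the spread of the P10 arrays, which ran from -2.51 to 2.07. It was 26.8-fold without P10 replicate 3 and 77.5-fold without P10 replicate 2. The fitted log2 difference was -5.49 (95% confidence interval -7.53 to -3.46). Over 27 alternatives this difference ran from -7.12 (authors' value table) to -3.9 (array weights), and miR-215 was called lower in each. The summed level of these 3 gut markers ran from 0.14 to 3.75 in P10 and from -1.83 to -0.98 in adult on the log2 scale. It was highest on P10 replicates 1 and 3 (2.86 and 3.75). The part of gut epithelium in the levels of the family was not tested.

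Among miRNAs linked to mesenchymal cells, 1 of 8 tested rose and 3 fell, against 27.3% higher and 20.2% lower over all tested miRNAs. The median log2 difference was -0.36, against -0.01 over all tested. miR-199a-5p (-1.75) and miR-199a-3p (-1.62), by name the 2 arms of miR-199a, fell together with miR-214 (-1.64), which is of the same cluster. The 3 that fell are therefore not independent members of the list. miR-214 ran from -1.94 to -1.22 on P10 arrays and from -3.27 to -2.98 on adult arrays, without overlap. Spike-in scaling (-0.72, -0.59 and -0.62) and the lack of any scaling (-0.79, -0.66 and -0.68) ended all 3 calls, and cyclic loess over all probes that of miR-199a-3p (-0.675). miR-143 rose by 0.93 (limma adjusted p = 0.0485), a call that ended when any array but P10 replicate 4 was left out (0.72 to 1.05). miR-145, miR-21, miR-10b and miR-221 were not called. The summed level of the 5 mesenchymal markers overlapped between the ages, from 2.09 to 2.88 in P10 and from 2.35 to 2.83 in adult. In adult this sum was mostly miR-143, which was at 2.13 to 2.66 there. It therefore does not show the lower levels of miR-199a-5p, miR-199a-3p and miR-214.

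**Figure D4:**
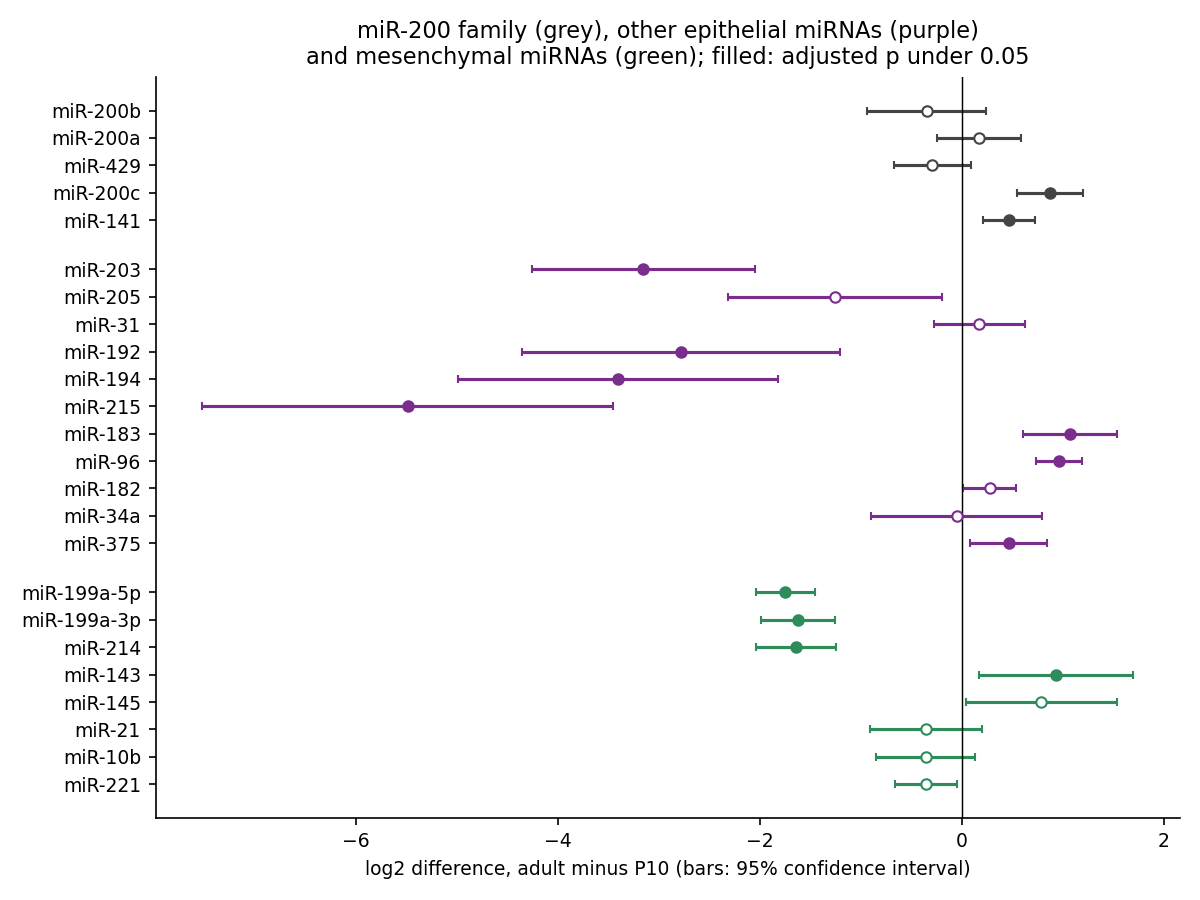
Log2 difference (x axis, adult minus P10, with 95% confidence intervals) of the 5 miR-200 members, 11 tested epithelial miRNAs and 8 tested mesenchymal miRNAs (rows), filled where the limma adjusted p was under 0.05. The value of miR-215 rests on adult arrays at the floor; the miR-200 members lie between -0.35 and 0.87, inside the range of both lists.

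The clusters also differed in the miRNAs whose pattern over the 8 arrays was most like theirs, among 159 other miRNAs well above background on all arrays. For the chromosome 5 cluster these were miR-30a* (Pearson correlation 0.949 over 8 arrays), miR-582 (0.885) and let-7b* (0.876, with 3 arrays at the floor). The scaled log2 level of miR-30a* was -3.34, -3.35, -3.97 and -4.25 on P10 replicates 1 to 4 and -3.92 to -3.80 in adult, the same high start on the dim P10 arrays. The lowest correlation was that of miR-376c (-0.906). For the chromosome 4 cluster the most alike were miR-27b (0.948), miR-26b (0.940) and let-7f (0.938), and the least alike was miR-322 (-0.965). miR-27b was between 1.64 and 1.87 on P10 arrays and between 2.56 and 2.77 on adult arrays. These correlations share the arrays, their scaling and the 2 ages, and are given as a description.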

How the data were processed

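Each array received cyanine-3-labelled total RNA of 1 sample, per the labels' protocols. Per the file headers, the deposited intensity values come from version 10.7.3.1 of Agilent Feature Extraction, whose processed signal has background subtracted and falls below 0 for dim features. A second source was the authors' table of log2 values for 311 miRNAs, whose making is not stated in the labels. Its columns shared 1 set of sorted values (largest gap 0.00787) and ranked miRNAs as the scanner's total gene signal did (Spearman correlation 1 on every array).

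Outlier features were left out (2.34% to 3.65% per array), none was saturated, and the rest of a probe were averaged. Arrays were scaled to their 75th percentile, taken over the 278 probes that all arrays had above background, and values below a common floor (-5.51 in log2, the 1st percentile of probes above background, median of 8 arrays) were set to it before log2 was taken. Well above background means that most used features of the probe carried the scanner's flag. Each miRNA was represented by the probe with the highest mean log2 value after the floor was applied. Ties, as for probes at the floor on all arrays, were settled by probe name. A miRNA needed 4 of 8 arrays above background to be tested, which left 238. The model was adult minus P10 without a block, fitted by lmFit and eBayes (limma 3.58.1, R 4.3.3), and p-values were adjusted over all 238 by Benjamini-Hochberg with a threshold of 0.05. The fit was tested on simulated data. No 2 arrays held identical values (highest correlation 0.997). The number of arrays limits the precision. The normexp alternative used median signals with an offset of 50.

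The members, the lists and the alternatives were chosen with earlier results of these data known. The rule for named miRNAs took all members and asterisk products with every probe, the called miRNAs of both lists, and per cluster the 3 most and the 1 least correlated other miRNAs. Other listed miRNAs were named after their values were seen. miR-486, miR-155 and, under that name, miR-216b had no match on the array. Of the marker lists, the leukocyte (4 tested) and endothelial (2 tested) ones had no called member. The 2 tested acinar miRNAs were not called either. The 2 tested erythroid and the 3 islet endocrine miRNAs were called higher. Over all tested miRNAs 27.3% were called higher and 20.2% lower. The ages overlapped for both erythroid miRNAs (miR-451 and miR-144), and miR-144 was at the floor on 3 arrays. Of the islet endocrine ones, miR-375 was just past the threshold (limma adjusted p = 0.0485).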

Additional observations from a re-analysis of the deposited data

How the results depend on the processing

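The count of tested miRNAs called, 113 here, was 75 without scaling, 62 with spike-in scaling, 34 with cyclic loess over all probes and 179 with array weights, and 84 to 138 when 1 array was left out. Family members called higher, 2 here, numbered 1 with quantile normalization, with cyclic loess on bright probes, the mean over probes, the authors' value table and the dimmer probes. They numbered 0 relative to miR-375 and under all-probe cyclic loess. Over all 238 tested miRNAs 56, 71, 58, 59, 64, 26 and 12 were higher in these settings, in the same order. Leaving out 1 array kept the count of members called higher at 2. Members called lower, 0 here, numbered 1 with quantile normalization, cyclic loess over all probes and the dimmer probes. They numbered 2 with cyclic loess on bright probes, with array weights and without P10 replicate 4 (0 to 2 over the arrays left out). Over all 238 tested miRNAs 46, 22, 49, 44, 91 and 60 were lower in these settings, in the same order. In these settings miR-200b was called at -1.07 (cyclic loess over all probes), -0.71 (on bright probes) and -0.62 (array weights), and miR-429 at -0.56 (on bright probes) and -0.44 (array weights).

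Signs turned as follows, and the cause was not tested. miR-200b stood at 0.12 with the percentile over all probes, 0.61 without scaling, 0.68 with spike-in scaling and 0.05 (0.0467) with P10 replicates 3 and 4 alone, and miR-429 at 0.18, 0.67 and 0.74 in the first 3. miR-200a stood at -0.29 with quantile normalization, -0.30 relative to miR-375, -0.12 and -0.21 with cyclic loess over all and on bright probes, -0.01 (-0.0114) with array weights and -0.14 in the authors' value table. miR-141 stood at -0.33, -0.20 (-0.195), -0.20 (-0.199) and -0.16 with quantile normalization, cyclic loess over all and on bright probes and in the authors' value table. miR-375 stood at -0.30 (-0.296), -0.28 and -0.42 (-0.415) with quantile normalization, cyclic loess on bright probes and in that table. The shift between the clusters was -0.58 (-0.577) with cyclic loess over all probes and -0.92 to -0.76 when 1 array was left out.

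On the epithelial list 0 rose and 2 fell with cyclic loess over all probes, against 3 and 4 here (2 to 3 and 4 to 5 with 1 array left out). Over all 238 tested miRNAs 12 rose and 22 fell in that setting, against 65 and 48 here. On the mesenchymal list, 1 rising here, 2 rose with the all-probe percentile and 0 without scaling, under quantile normalization and under all-probe cyclic loess (0 to 2 with 1 array left out). Over all 238 tested miRNAs 90, 58, 56 and 12 rose in these settings, in the same order. Of the mesenchymal list 0 fell without scaling, against 3 here, where 17 of all 238 tested fell without scaling.

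Replicate numbers did not pair the arrays: deviations of same-numbered arrays correlated at 0.18, -0.09, 0.48 and -0.23, and 1 of 4 numbers was its own best partner. With the replicate block 95 miRNAs were called, with miR-200c (limma adjusted p = 0.0132) and miR-141 (adjusted p = 0.0489) still among them. Chosen after seeing the data were the dimmer probes and the cluster shift under quantile normalization and cyclic loess. Slide and scan could not be a block, since all arrays shared 1 slide. The asterisk products lie too near background for a tested comparison.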
